A study of Mus musculus with 6 samples.

Results

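Gcsam, Rgs13, Mybl1, Bcl6, Fas and Efnb1 are 6 genes used to recognise germinal-centre B cells, and they were read here in CD45+ cells sorted from spleen and from mesenteric lymph node (mLN), which receives lymph from the gut. They were taken by name through the GENCODE mouse M21 annotation. All 6 were found among the 55487 genes of the tables, and all 6 passed the filter on low counts that left 14427 genes for testing. There were 3 spleen and 3 mLN libraries of polyA RNA, all from wild-type C57BL6/J mice and all from freshly prepared total hematopoietic cells. No treatment, age or sex is given in the labels, nor do the labels state that each library is a different animal. P-values therefore cover only the spread between these libraries, which may be technical.

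A germinal centre is a structure that forms inside a B-cell follicle after contact with antigen. Its B cells divide, mutate their antibody genes, compete for help from follicular helper T cells and leave as memory B cells or plasma cells. The transcriptional repressor Bcl6 holds cells in this state and delays their turn to plasma cells. Class switching replaces the IgM and IgD constant region with that of IgG, IgA or IgE. In the mesenteric node and other gut-associated tissue, germinal centres are known to be fed by antigen from food and microbes and to yield many IgA cells.

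Libraries held 12584244 to 18119551 expected counts (reads assigned to a gene, with shared reads apportioned by a model). Across genes, log2 CPM (counts scaled to a library of 1000000) correlated with coefficients of 0.984 to 0.989 within a tissue and 0.934 to 0.937 between tissues, and no library stood apart. Ptprc, which encodes CD45 itself, averaged 2191 ± 39 CPM in spleen against 2675 ± 35 CPM in mLN (SD, n = 3 per tissue). All 15 pan-B markers were lower in mLN (median log2 fold change -0.79) and all 12 pan-T markers higher (median 1.15). By the test given below, 23.8% of all tested genes were lower and 21.8% higher. Of the markers of CD45-negative stromal and follicular dendritic cells, Pdpn was at 0 in all 6 libraries and Cxcl13 was at 0 in all but 1. That list was not absent, as it summed to 2.87 to 5.86 CPM in spleen and 1.40 to 2.35 CPM in mLN. Of its 2 tested genes 1 was lower in mLN, Pdgfrb, at 3.08 CPM in spleen against 0.779 CPM in mLN (log2 fold change -1.97).

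Of the 6 germinal-centre genes, 4 were lower in mLN: Gcsam, Rgs13, Mybl1 and Bcl6, of which Bcl6 turned higher when libraries were scaled to B-cell RNA. Fas and Efnb1 were not called in either direction. Calls were made where edgeR's quasi-likelihood test, adjusted over all 14427 genes, gave a p under 0.05. That test called 45.5% of all tested genes, 23.8% lower and 21.8% higher in mLN. The median log2 fold change was -0.68 over the 6 genes and -0.0018 over all tested genes.

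Gcsam (ENSMUSG00000022659, chromosome 16, 45610380 to 45622867, GRCm38, plus strand) encodes an adaptor protein that tunes B-cell receptor signalling and cell motility in germinal-centre B cells. It stood at 8.85, 9.50 and 8.07 CPM in spleen and at 2.07, 2.70 and 2.27 CPM in mLN. Every spleen library was well above every mLN library. The means were 8.81 ± 0.718 and 2.35 ± 0.323 CPM (SD, n = 3 per tissue), with a log2 fold change of -1.90 (SE 0.214, adjusted p = 6.03e-10). Only 3.57% of all tested genes had a lower fold change than Gcsam. The values rest on 135 to 156 counts in each spleen library and 28 to 48 in each mLN library.

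Rgs13 (ENSMUSG00000051079, chromosome 1, 144138654 to 144177372, minus strand) encodes a regulator that shortens signalling by heterotrimeric G proteins, and so limits the response of B cells to chemokines. It stood at 2.93, 1.89 and 2.51 CPM in spleen and at 1.20, 1.52 and 0.729 CPM in mLN. The groups did not overlap, but the lowest spleen library lay close to the highest mLN library. The log2 fold change was -1.06 (SE 0.389, adjusted p = 0.0236). Rgs13 was the scarcest of the 6 genes, with 31 to 51 counts in a spleen library and 9 to 27 in an mLN library. Its call was lost without spleen replicate 1 (adjusted p = 0.126), spleen replicate 3 (0.0686) or mLN replicate 3 (0.0928), and with an effective-length offset (0.0594). Rgs13 is also known in mast cells, and all 8 mast-cell and basophil markers were lower in mLN, beside 23.8% of all tested genes. Their summed level was 87.5 to 97.6 CPM in spleen and 8.34 to 12.6 CPM in mLN. Scaled to pan-B RNA, 7 of the 8 were called lower and 0 higher (median -3.19), beside 6.31% and 75.9% of all tested genes. On that scale Rgs13 was not called (-0.26, adjusted p = 0.536). The part of mast cells and basophils in the Rgs13 difference was not tested.

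Mybl1 (ENSMUSG00000025912, chromosome 1, 9667415 to 9700209, minus strand) encodes A-Myb, a transcription factor of dividing germinal-centre B cells. It stood at 12.4, 12.8 and 11.8 CPM in spleen and at 7.81, 5.06 and 7.29 CPM in mLN. All 3 mLN libraries were below all 3 spleen libraries, with mLN replicate 2 the lowest. The log2 fold change was -0.89 (SE 0.161, adjusted p = 1.26e-05). Both relatives of Mybl1 in the Myb family were lower as well. Mybl2, which drives genes of cell division, was at -1.72 on the log2 scale (adjusted p = 3.19e-17), and Myb, a factor of progenitor cells, was at -0.58 (adjusted p = 4.92e-10). Mybl1 is also expressed by cytotoxic lymphocytes, whose marker list was lower for 8 and higher for 2 of 10 genes. Over all tested genes 23.8% were lower and 21.8% higher. Ncr1 was at -0.95 and Eomes at 0.67 on the log2 scale. Scaled to pan-B RNA, 7 of the 10 were called higher and 1 lower (median 0.33), beside 75.9% and 6.31% of all tested genes. On that scale Ncr1 was not called (-0.15, adjusted p = 0.400), Eomes was at 1.47 and the 1 lower gene, Gzma, was at -0.81. The part of cytotoxic lymphocytes in the Mybl1 difference was not tested.

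Bcl6 (ENSMUSG00000022508, chromosome 16, 23965052 to 23988852, minus strand) was the most abundant of the 6 genes. It stood at 76.4, 75.8 and 71.1 CPM in spleen and at 50.2, 49.8 and 60.8 CPM in mLN. The groups did not overlap, and mLN replicate 3 was the closest to spleen. The log2 fold change was -0.48 (SE 0.0666, adjusted p = 8.33e-08), the smallest of the 4 called differences. Bcl6 is also the defining factor of follicular helper T cells and is present in other T cells and in myeloid cells.

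Fas (ENSMUSG00000024778, chromosome 19, 34290666 to 34327772, plus strand) encodes a death receptor that germinal-centre B cells carry, as do activated T cells. It stood at 13.2, 14.7 and 14.4 CPM in spleen and at 16.3, 15.8 and 13.0 CPM in mLN. The groups overlapped: mLN replicate 3 was below every spleen library, while the other mLN libraries were above them. The log2 fold change was 0.10, with a 95% interval from -0.15 to 0.35 (adjusted p = 0.565).

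Efnb1 (ENSMUSG00000031217, chromosome X, 99136130 to 99148991, plus strand) encodes ephrin-B1, a membrane ligand through which germinal-centre B cells contact follicular helper T cells. It stood at 5.92, 5.06 and 6.99 CPM in spleen and at 5.34, 5.96 and 5.26 CPM in mLN. The mLN values lay within the spleen range. The log2 fold change was -0.11, with a 95% interval from -0.52 to 0.29 (adjusted p = 0.681).

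**Figure D1:**
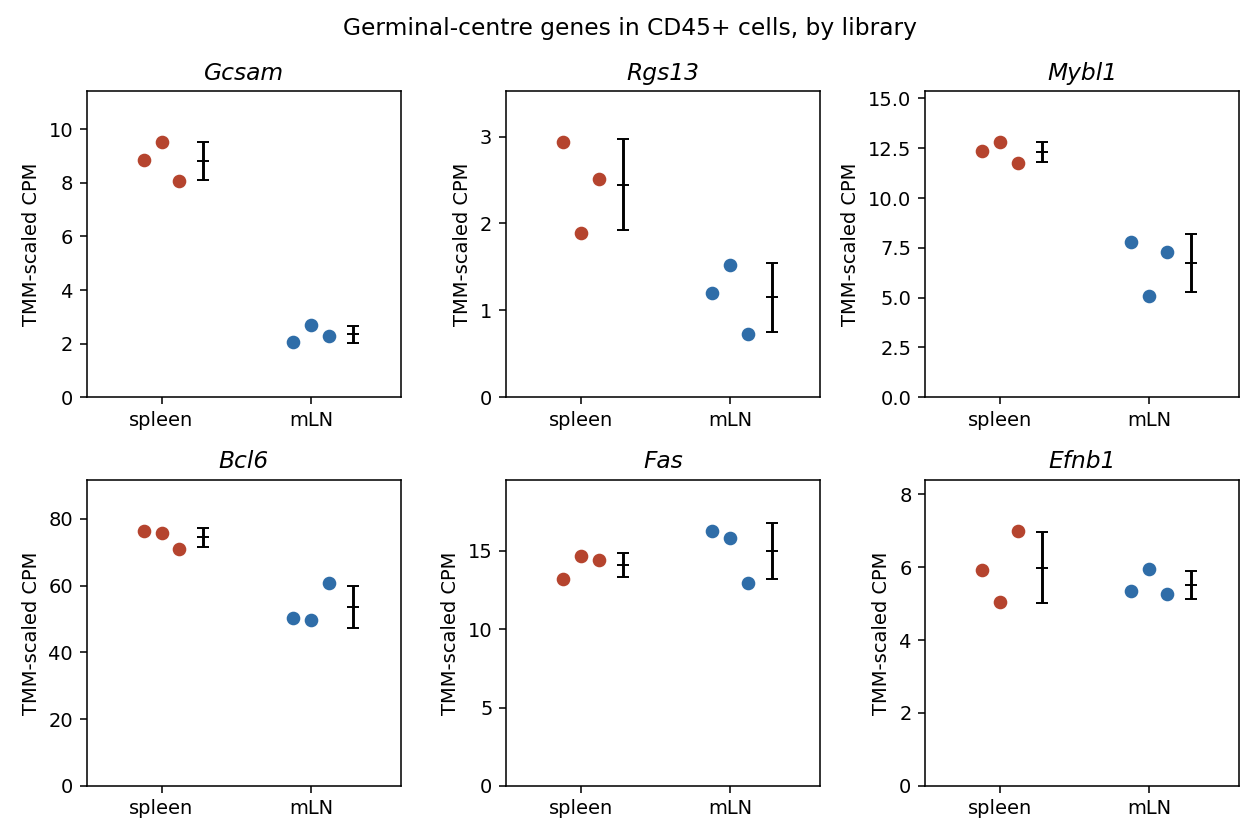
Level of each of the 6 genes in TMM-scaled CPM (linear axes from 0) in the 3 spleen (red) and 3 mLN (blue) libraries, with mean ± SD in black. Gcsam, Rgs13, Mybl1 and Bcl6 have no overlap between tissues, while Fas (13.0 to 16.3 CPM over both) and Efnb1 (5.06 to 6.99 CPM) overlap.

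Without overlap of libraries, 27.4% of all tested genes were lower in mLN and 25.5% higher, so the separation of 4 genes is described against a frequent pattern. As log2 CPM over the 6 libraries, Gcsam and Bcl6 correlated at 0.91 and Gcsam and Mybl1 at 0.87. Fas had a coefficient of -0.34 with Gcsam, and Efnb1 one of 0.32. These coefficients are a description of 6 points that share the division into 2 tissues.

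On a scale per transcript length (TPM, transcript abundance summing to 1000000 in each library, as deposited by the authors), the order of the levels in spleen was led by Bcl6 at 33.2 ± 1.24 and Fas at 17.8 ± 0.455 TPM (SD, n = 3). Gcsam at 5.37 ± 0.607 and Mybl1 at 5.24 ± 0.847 TPM followed and did not differ beyond their spread. Efnb1 at 3.48 ± 1.04 and Rgs13 at 2.79 ± 0.593 TPM came last, with overlapping ranges. In mLN, Bcl6 at 23.1 ± 2.65 and Fas at 18.9 ± 4.26 TPM were again the highest, here closer to each other. Mybl1 at 2.63 ± 0.980 and Efnb1 at 2.62 ± 0.169 TPM overlapped there. Rgs13 at 1.26 ± 0.451 and Gcsam at 1.17 ± 0.235 TPM were the lowest in mLN, with overlapping ranges, so their order there is not settled. In CPM, Rgs13 had the lower mLN mean (1.15, against 2.35 for Gcsam). In spleen, Gcsam was above Rgs13 in TPM in every library. The mean transcript length that RSEM assigned to Gcsam, from 2 annotated transcripts, was 2545 to 2785 bases in spleen libraries and 2932 to 3274 bases in mLN libraries. With an effective-length offset, the Gcsam log2 fold change was -2.13. No other annotated gene with counts overlapped any of the 6.

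The promoters of the genes called lower were read to see whether these genes share a binding motif, with that of Fas beside them. RefSeq windows (build GRCm38.p6, up to 250 bases before a start site) were found for 5 of the 6 genes, all but Mybl1, and bases inside an annotated exon are left out. Searched on both strands were the octamer ATGCAAAT, the Bcl6 and STAT motif TTCNNNGAA, the NF-kB motif core GGGNNTTTC, the Myb motif AACNGNC and the TATA box TATAAA. Capitals mark matches. The first is the window of Gcsam, at chr16:45610190-45610379 on the plus strand, which held no match.
Gcsam: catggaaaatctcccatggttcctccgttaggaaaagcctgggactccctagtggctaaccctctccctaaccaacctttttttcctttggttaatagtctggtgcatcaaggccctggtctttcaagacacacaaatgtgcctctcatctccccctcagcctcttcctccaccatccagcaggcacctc
The window of Rgs13, at chr1:144177373-144177622 on the minus strand, held 1 NF-kB match, letters found in 3.72% of all 32851 windows of the table.
Rgs13: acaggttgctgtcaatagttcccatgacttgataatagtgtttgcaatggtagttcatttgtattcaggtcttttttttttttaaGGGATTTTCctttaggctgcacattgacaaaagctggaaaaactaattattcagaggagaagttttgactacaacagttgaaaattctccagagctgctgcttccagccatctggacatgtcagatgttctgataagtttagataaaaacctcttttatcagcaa
Bcl6 has 2 start sites in RefSeq. The upstream window, at chr16:23988853-23989102 on the minus strand, held 1 Bcl6 and STAT match and 1 Myb match, motifs found in 7.02% and 27.7% of all windows.
Bcl6, upstream start: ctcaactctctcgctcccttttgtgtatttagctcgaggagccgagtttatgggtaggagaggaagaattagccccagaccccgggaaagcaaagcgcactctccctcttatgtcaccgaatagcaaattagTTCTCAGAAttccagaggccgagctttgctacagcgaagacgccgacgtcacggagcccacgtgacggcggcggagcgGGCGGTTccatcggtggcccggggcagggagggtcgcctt
The window of the internal start, at chr16:23981284-23981533 and 7569 bases further into the gene, held 3 Bcl6 and STAT matches. In the table, 0.0274% of windows (9 of 32851) held 3 or more. The motifs were chosen with the windows at hand, so this share is a description and not a test of enrichment.
Bcl6, internal start: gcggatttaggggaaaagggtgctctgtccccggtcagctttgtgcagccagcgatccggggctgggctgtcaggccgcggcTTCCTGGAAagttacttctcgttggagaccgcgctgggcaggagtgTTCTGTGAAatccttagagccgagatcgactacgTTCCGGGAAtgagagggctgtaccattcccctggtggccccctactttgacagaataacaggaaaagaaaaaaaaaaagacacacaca
The window of Fas, at chr19:34290409-34290658 on the plus strand, held 1 Bcl6 and STAT match.
Fas: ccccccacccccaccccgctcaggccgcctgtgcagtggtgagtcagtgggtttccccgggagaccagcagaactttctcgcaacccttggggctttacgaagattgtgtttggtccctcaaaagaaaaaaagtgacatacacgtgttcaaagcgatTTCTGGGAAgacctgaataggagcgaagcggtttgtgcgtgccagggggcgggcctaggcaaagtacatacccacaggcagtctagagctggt
The window of Efnb1 held no match. No motif was thus common to the windows of Gcsam, Rgs13 and Bcl6, and a match says only that the letters are there. The tables give counts per gene, so use of the 2 Bcl6 starts was not measured.

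Because B-cell RNA made a smaller part of the mLN libraries, the 6 genes were also set against it. The test was repeated with libraries scaled to the summed counts of the 15 pan-B markers, so that a fold change is relative to pan-B RNA. Under that scaling the median log2 fold change of all tested genes moved from -0.0018 to 0.80, 75.9% of them were called higher and 6.31% lower. In bulk samples fewer cells of a type and less RNA per cell cannot be told apart, and the scaling treats the pan-B sum as known without error.

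Gcsam was the 1 gene of the 6 that stayed called lower against pan-B RNA, with a log2 fold change of -1.10 (SE 0.216, adjusted p = 1.54e-05). As log2 CPM minus the mean of the pan-B list it was at -5.51, -5.43 and -5.64 in spleen and at -6.72, -6.36 and -6.61 in mLN, without overlap. Rgs13 (-0.26, SE 0.391, adjusted p = 0.536) and Mybl1 (-0.09, SE 0.163, adjusted p = 0.626) were not called. Rgs13 and Mybl1 thus had a difference from spleen that was not detectable beside that of pan-B RNA. Relative to the pan-B mean, Mybl1 averaged -5.05 ± 0.0516 in spleen against -5.11 ± 0.330 in mLN (SD, n = 3 per tissue). Of its relatives, Mybl2 stayed called lower when scaled to pan-B RNA (-0.92, adjusted p = 9.40e-10) and Myb was called higher (0.22, adjusted p = 0.00329).

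Bcl6, Fas and Efnb1 were called higher against pan-B RNA. Bcl6 had a log2 fold change of 0.32 (SE 0.0669, adjusted p = 4.09e-05), the reverse of its direction on the TMM scale. Fas had one of 0.90 (SE 0.125, adjusted p = 2.61e-08) and Efnb1 one of 0.68 (SE 0.200, adjusted p = 0.00214). Fas and Efnb1 were thus close to the shift of 0.80 that all tested genes show on this scale, and Bcl6 was below it. For each of Gcsam, Bcl6, Fas and Efnb1 the level minus the pan-B mean did not overlap between tissues. The exact two-sided permutation p was 0.1 for each of these, the smallest that 3 against 3 allows, and 0.14 after adjustment over 7 such tests. On the TMM scale the pan-T markers summed to 1609 to 1629 CPM in spleen and to 3596 to 3642 CPM in mLN, and their part in the differences scaled to pan-B RNA was not tested.

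**Figure D2:**
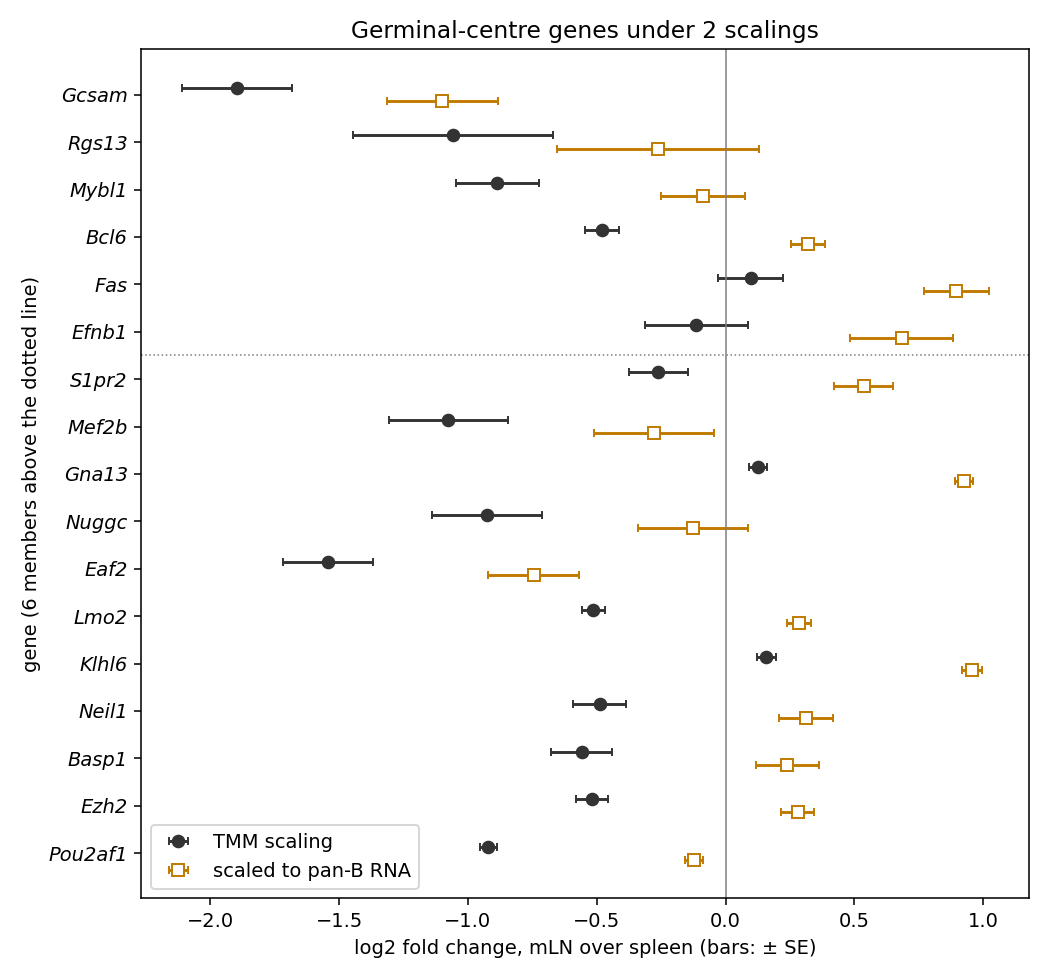
Log2 fold change, mLN over spleen, of the 6 genes and of 11 of the 12 tested other germinal-centre genes, with libraries scaled by TMM (filled circles) or to pan-B RNA (open squares). Bars are ± SE. Gcsam lies below 0 on both scales (-1.90 and -1.10), while Bcl6 crosses 0 (-0.48 and 0.32).

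Of 13 other genes that are raised in germinal-centre B cells, 12 were tested. Of these 9 were lower and 2 higher in mLN, beside 23.8% and 21.8% of all tested genes. Their median was -0.54 on the log2 scale. The choice to give 11 of the tested genes here was made after their values were seen. Eaf2, a transcription elongation factor, had the largest fall of the list (-1.54, adjusted p = 6.09e-10). Mef2b, a factor that activates Bcl6, had a log2 fold change of -1.08 and the nuclear GTPase gene Nuggc one of -0.93. Pou2af1, a B-cell coactivator, fell from 391 ± 6.12 to 206 ± 9.84 CPM (SD, n = 3 per tissue). Smaller falls were those of Basp1 (-0.56), the histone methyltransferase gene Ezh2 (-0.52), Lmo2 (-0.51) and the DNA glycosylase gene Neil1 (-0.49). The confinement receptor gene S1pr2 was not called (-0.26, adjusted p = 0.0591). Its signalling partner Gna13 and the adaptor gene Klhl6, both present well beyond germinal centres, rose by 0.13 and 0.16 on the log2 scale. Serpina9 did not pass the filter.

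Scaled to pan-B RNA, Eaf2 (-0.74, adjusted p = 0.000213) and Pou2af1 (-0.12, adjusted p = 0.00127) stayed called lower in that list. Mef2b (-0.28, adjusted p = 0.266) and Nuggc (-0.13, adjusted p = 0.586) were not called on that scale. Of the 12 tested genes 6 were called higher and 2 lower, beside 75.9% and 6.31% of all tested genes.

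Genes of resting B cells that germinal-centre B cells keep low were mixed on the TMM scale, with 5 higher and 3 lower of 8 (median 0.20). On that scale 21.8% of all tested genes were called higher and 23.8% lower, the shares beside each list of this paragraph. Cd38 (-0.66) and Ighd (-0.48) were lower, while Bcl2 (0.91) and S1pr1 (0.42), which T cells also express, were higher. In the list for antibody gene diversification 3 of 11 genes were higher and 2 lower (median -0.06). The exonuclease gene Exo1 of mismatch repair was lower (-0.99, adjusted p = 0.000102), while Apex1 (0.21), which serves DNA repair in all cells, was higher. Of 10 genes of the dark and light zones, where its B cells divide and are selected, 3 were higher and 3 lower (median 0.02). Foxo1 rose by 0.45 and Myc by 0.35, and Cd40 and Cd86, through which B cells receive T-cell help, had log2 fold changes of -0.49 and -0.46. Scaled to pan-B RNA, no gene of these lists was called lower, beside 6.31% of all tested genes. Called higher were 8 of 8 genes of resting B cells (median 0.99) and 9 of 11 of antibody gene diversification (0.74). So were 10 of 10 genes of the zones (0.82). Over all tested genes 75.9% were called higher, with a median of 0.80. The call of Exo1 was lost on that scale (-0.19, adjusted p = 0.396).

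All 18 proliferation genes were lower in mLN, beside 23.8% of all tested genes, and their median was -1.18. Mki67, a marker of dividing cells, averaged 432 ± 1.18 CPM in spleen against 173 ± 3.59 CPM in mLN (SD, n = 3 per tissue; log2 fold change -1.32, adjusted p = 9.27e-32). Ccnb1 and Ube2c, genes of mitosis, both had a log2 fold change of -1.55. Scaled to pan-B RNA, 12 of the 18 genes were called lower and 3 higher (median -0.39), beside 6.31% and 75.9% of all tested genes. Mki67 was at -0.52 on that scale (adjusted p = 7.28e-18). This list covers dividing cells of every kind, and the part of germinal-centre B cells in it was not measured.

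Partners of the 6 gene products were read next. Of 8 corepressor genes that Bcl6 works through, 5 were higher and 1 lower (median 0.14), with Tbl1x at 0.38, Ncor1 at 0.32 and Ctbp1 at -0.14. On the TMM scale 21.8% of all tested genes were higher and 23.8% lower, the shares beside this list and the Fas list. Prdm1, the plasma-cell factor gene that Bcl6 represses, was lower (-0.50, adjusted p = 7.83e-05) and was named after its value was seen. In the Fas list 2 genes were higher and 4 lower of 8 (median -0.19). The ligand gene Fasl, also named after its value was seen, averaged 9.16 ± 1.13 CPM in spleen against 6.58 ± 1.13 CPM in mLN (-0.47, adjusted p = 0.0217). Bid (-0.95), which amplifies the death signal, was lower, while the initiator Casp8 (0.42) and its inhibitor Cflar (0.34) were higher. Scaled to pan-B RNA, Bid was no longer called (-0.15, adjusted p = 0.0793), nor was Fasl (0.32, adjusted p = 0.0818). On that scale 8 of 8 corepressor genes and 5 of 8 genes of the Fas list were called higher, beside 75.9% of all tested genes. In the Fas list 1 gene was called lower, beside 6.31% of all tested genes.

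For Efnb1, the receptor gene Ephb6 of T cells was at 11.1, 11.7 and 10.8 CPM in spleen and at 19.5, 20.7 and 17.4 CPM in mLN, a log2 fold change of 0.78 (adjusted p = 7.03e-07). It was the 1 called gene among 4 tested in the list of ephrin-B ligands and Eph receptors, and 4 more did not pass the filter. Over all tested genes 45.5% were called. For Rgs13, the list of chemoattractant and confinement signalling was split (median -0.09). Of its 11 genes 5 were higher and 5 lower, beside 21.8% and 23.8% of all tested genes. Rgs1, another regulator of G-protein signalling, rose by 0.73, opposite to Rgs13. Cxcr5, the receptor gene that guides B cells and follicular helper T cells into follicles, averaged 241 ± 1.10 CPM in spleen against 159 ± 6.16 CPM in mLN (-0.60, adjusted p = 3.50e-18). Arhgef1 rose by 0.39, and Gnaq had a log2 fold change of -0.56. Scaled to pan-B RNA, all 11 genes of this list were called higher, beside 75.9% of all tested genes.

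Follicular helper T-cell markers moved both ways (median -0.15). Of 8 tested 3 were higher and 3 lower, beside 21.8% and 23.8% of all tested genes. Icos (1.08) and Sh2d1a (0.69) were higher, as were the pan-T markers. Pdcd1, the gene of the receptor PD-1, which these cells carry at high levels, was lower (-0.89, adjusted p = 1.89e-12). Relative to the pan-B markers, none of the tested helper markers was called lower, Pdcd1 included (-0.09, adjusted p = 0.284), beside 6.31% of all tested genes. On that scale 6 of the 8 were called higher, beside 75.9% of all tested genes.

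**Figure D3:**
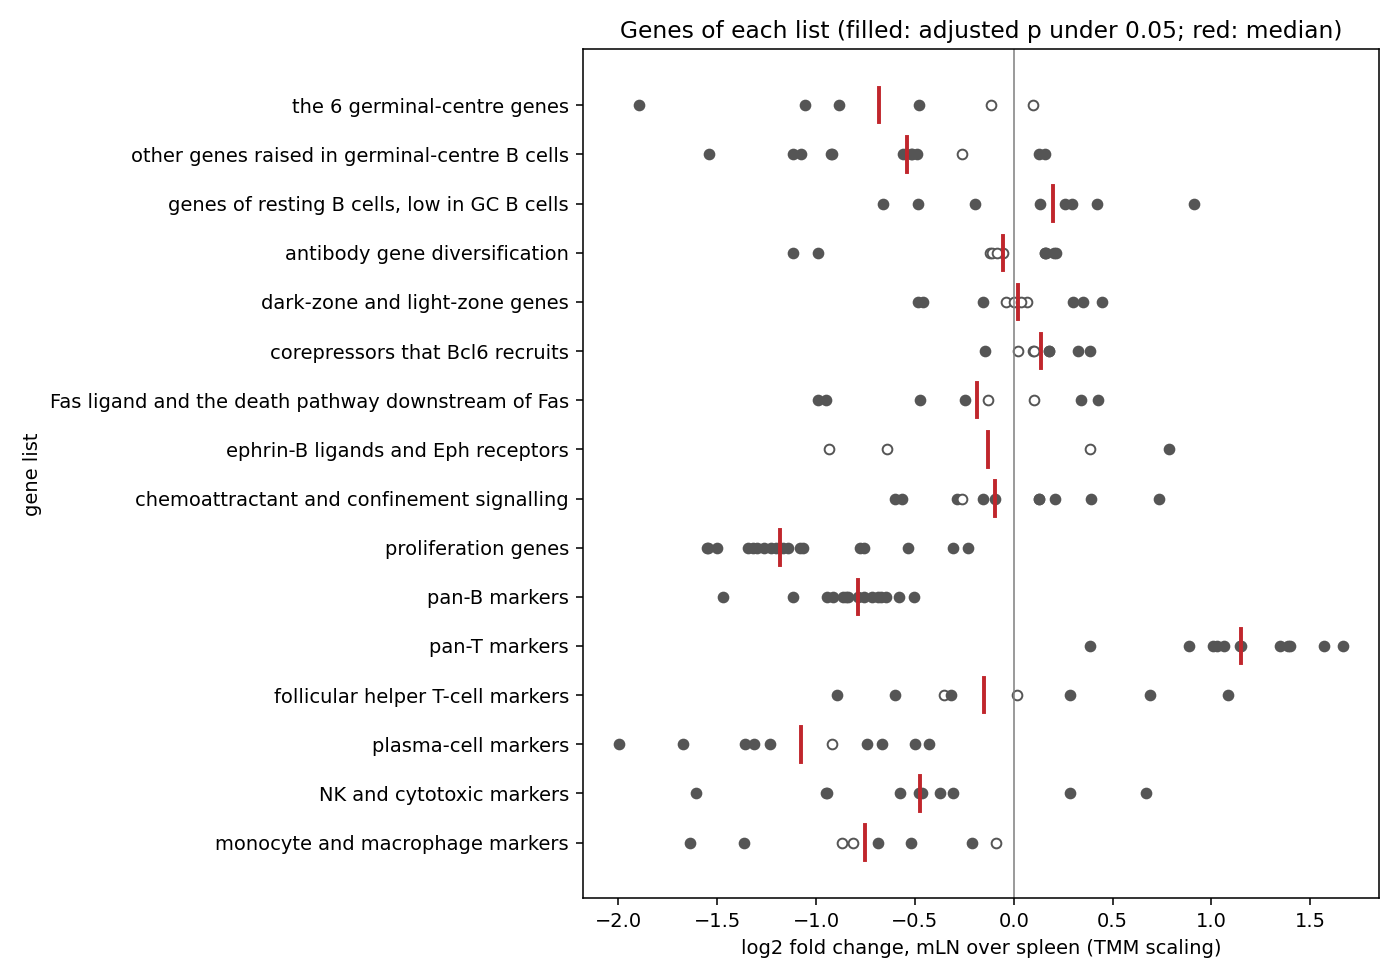
Log2 fold change, mLN over spleen (TMM scaling), of each tested gene in 16 lists; filled points were called at an adjusted p under 0.05 and red bars are list medians. The 6 germinal-centre genes spread from -1.90 to 0.10 around a median of -0.68, next to medians of -0.79 for pan-B markers and -1.18 for proliferation genes.

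Switched isotypes, summed with IgA among them, were not lower in mLN. The 6 switched constant genes summed to 867, 894 and 863 CPM in spleen and to 960, 954 and 954 CPM in mLN. The mean sum was 81.3 CPM higher in mLN, while Igha alone went from 146 to 393 CPM. The other switched genes together were thus lower in mLN. Against the unswitched genes Ighm and Ighd, all 6 switched genes made 8.24%, 8.55% and 8.47% of heavy-chain constant counts in spleen. In mLN they made 26.1%, 25.8% and 25.4%. The share was thus 17.3 percentage points higher in mLN, with no overlap (exact two-sided permutation p = 0.1, the smallest possible). Ighm fell from 8440 ± 165 to 1987 ± 34.7 CPM and Ighd from 1076 ± 5.84 to 769.6 ± 17.0 CPM (SD, n = 3 per tissue).

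Isotypes differed among themselves. Igha (IgA) rose from 146 ± 4.87 to 393 ± 10.4 CPM, and its share of heavy-chain constant counts went from 1.41 ± 0.0604% to 10.6 ± 0.391%. Ighe (IgE) rose from 4.12 ± 0.0900 to 15.3 ± 1.12 CPM and Ighg2b from 137 ± 7.79 to 229 ± 5.91 CPM (log2 fold changes 1.90 and 0.74). Ighg1 was lower (log2 fold change -1.09) and so was Ighg2c, from 68.0 ± 3.09 to 14.3 ± 0.931 CPM (-2.24). Ighg3 averaged 126 ± 4.79 CPM in spleen against 121 ± 5.13 CPM in mLN and was not called (adjusted p = 0.226).

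Counts per gene do not separate mRNA of switched cells from sterile transcripts, which B cells make across a constant gene before switching to it. The Ighg genes are alike in sequence, so reads may be split between them. Plasma cells make much of the antibody mRNA in a tissue. Of 10 plasma-cell markers 9 were lower in mLN, beside 23.8% of all tested genes. Their summed level was 1129 to 1144 CPM in spleen and 436 to 461 CPM in mLN. Scaled to pan-B RNA, 4 of the 10 were called lower and 2 higher, beside 6.31% and 75.9% of all tested genes. Jchain, which joins IgM and IgA into polymers, fell from 633 ± 6.91 to 159 ± 2.24 CPM. The part of plasma cells in the isotype shares was not tested.

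**Figure D4:**
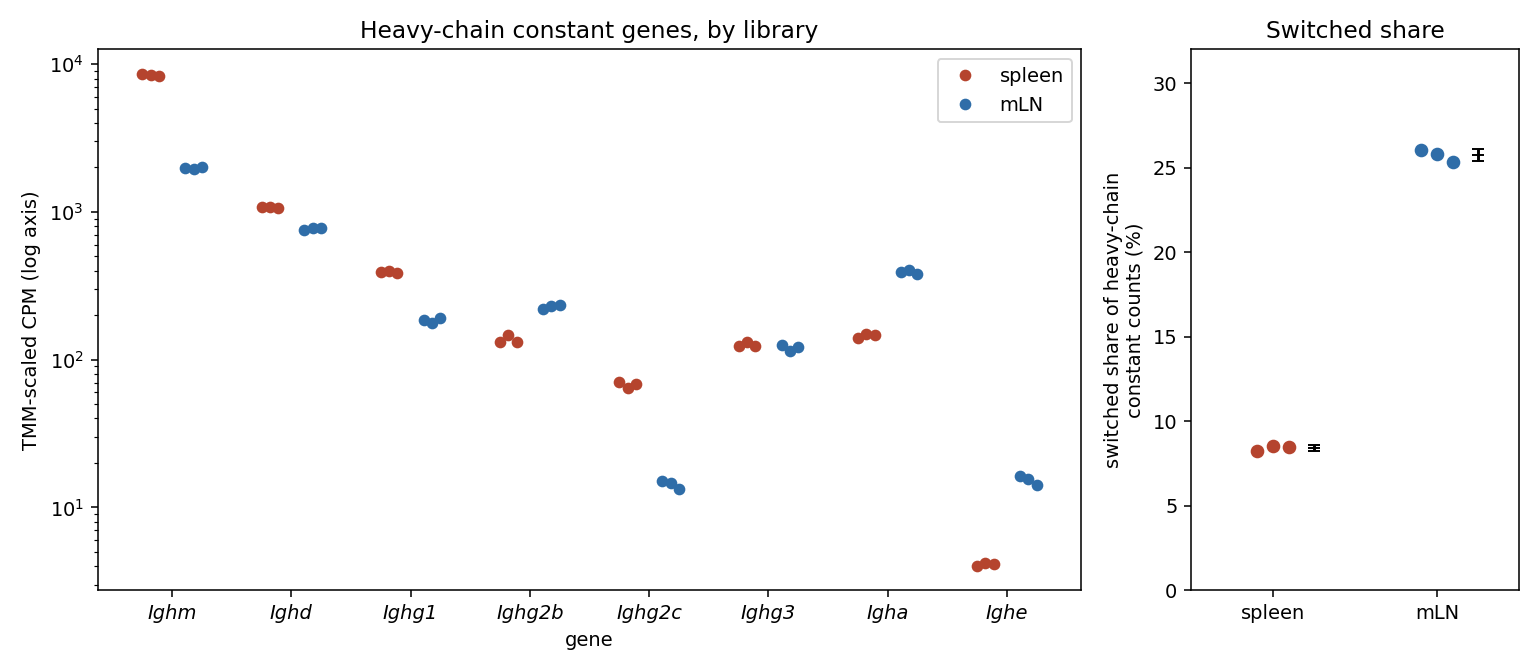
Left, heavy-chain constant genes in TMM-scaled CPM (log axis) in spleen (red) and mLN (blue) libraries; right, switched genes as a percent of heavy-chain constant counts, with mean ± SD. The share is 8.24% to 8.55% in spleen and 25.4% to 26.1% in mLN, with Ighm lower and Igha, Ighe and Ighg2b higher in mLN.

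The genes most like each of the 6 were taken as the 3 with the highest Pearson coefficient of log2 CPM over the 6 libraries, among 11451 other genes with a mean of at least 1 CPM. Many genes follow the division into tissues, so a high coefficient is common: 2067 genes were over 0.9 with Gcsam and 1288 with Bcl6. For Gcsam they were Rubcn, Mtss1 and Pdcd1 (each 1.00 after rounding), with log2 fold changes of -0.84, -0.55 and -0.89. For Rgs13 they were Lrrc8d, Itih5 and Apaf1 (0.99 to 1.00), for Mybl1 Ublcp1, Mprip and Rab3gap2 (0.99 to 1.00) and for Bcl6 Brpf3, Dvl3 and Rere (each 0.99). Fas, which did not follow the tissues, had 52 genes over 0.9, led by Hjurp, Exoc7 and Cwc25 (0.98 to 0.99). Efnb1 had 25, led by Armt1, Cpq and P2ry12 (0.97 to 0.98). None of the 3 closest to Fas or to Efnb1 was called between the tissues.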

How the data were processed

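Gene tables of 6 libraries were used, 1 per library. Per the submitters' processing notes, the authors used STAR and RSEM with the mouse build mm10. The sources used here name no version, annotation or strand setting. Per the file headers, the authors deposited an expected count, an effective length and a TPM value per gene. Identifiers were matched to GENCODE M21 (GRCm38), 55227 of 55487.

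Expected counts were rounded, filtered with filterByExpr (14427 genes) and scaled with TMM factors. Tissues were compared with edgeR 4.0.16 in R 4.3.3 (quasi-likelihood, robust, tissue as the only term, Benjamini-Hochberg over all tested genes). All adjusted p-values of genes come from edgeR. Its fit was run on counts simulated with the same coefficient of variation (0.055) for every gene. That run cannot show how the fit does for genes that vary more. Log2 CPM used a prior count of 2. Library totals were 12584244 to 18119551, so genes with few counts carry wide errors. Alternatives were other scalings, filters, DESeq2 1.42.0, an effective-length offset, a replicate block and leaving out each library.

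The 6 genes and all lists were chosen with earlier results of these data known. Named were the 6 genes, heavy-chain constant genes, S1pr2, Mki67, Cd3e, Ptprc, Cxcr5, up to 2 called genes per list and direction with the largest change, and 3 most alike genes per member; some are not reported here. Motifs were chosen with the windows at hand. The lists not described above were B-cell precursors (1 higher and 3 lower of 5 tested) and monocytes and macrophages (0 higher and 5 lower of 8). Over all tested genes 21.8% were higher and 23.8% lower.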

Additional observations from a re-analysis of the deposited data

How the results depend on the processing

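Of the 6 germinal-centre genes, 3 or 4 were called under every alternative run, Gcsam in all 15 (log2 fold change -2.13 to -1.10). The called genes were not the same when scaled to pan-B RNA. There Gcsam was lower, Bcl6, Fas and Efnb1 were higher, and Rgs13 and Mybl1 were not called. Rgs13 has the weakest support, as given above with its adjusted p-values; it dropped out of the stricter filter. Apart from the scaling to pan-B RNA, Bcl6 and Mybl1 kept direction and call in all alternatives. All-gene counts were within 1.5 times of 6569, except 11864 when scaled to pan-B RNA, where 92.3% of calls were higher against 47.8%. That scaling moves all genes by construction, and these log2 fold changes became positive: Bcl6 0.32, Efnb1 0.68, S1pr2 0.54, Lmo2 0.29, Neil1 0.31, Basp1 0.24, Ezh2 0.28, Ighg3 0.73, Ighd 0.31, Cxcr5 0.20, Cd38 0.14, Cd40 0.31, Cd86 0.34, Ctbp1 0.65, Myb 0.22, Gnaq 0.24, Fasl 0.32, Prdm1 0.30, Mtss1 0.25, Lrrc8d 0.55, Itih5 0.44, Apaf1 0.48, Ublcp1 0.43, Mprip 0.61, Rab3gap2 0.55, Brpf3 0.54, Dvl3 0.65, Rere 0.66, Armt1 0.71, Cpq 0.55 and P2ry12 0.63. Rubcn kept its sign there and lost its call (-0.04, adjusted p = 0.312). With library totals only, Hjurp was at -0.027, Exoc7 at -0.013 and Cwc25 at -0.0053. With the effective-length offset, Hjurp was at -0.12, Cwc25 at -0.0077 and Ighg3 at 0.15; the cause was not tested. On leaving out 1 library, Efnb1 ranged from -0.22 to 0.010, P2ry12 from -0.38 to 0.17 and Exoc7 from -0.0012 to 0.10. Relative to the pan-B mean, the difference of Rgs13 ranged from -0.43 to 0.051 and that of Mybl1 from -0.18 to 0.13, with a change of sign without mLN replicate 3 and mLN replicate 2. The difference in switched share was 9.86 percentage points with IgA left out, 23.1 with Ighd left out of the denominator and 23.5 from TPM. Same-numbered libraries of the tissues share only a number: their deviations correlated at 0.03, 0.03 and -0.01. With a replicate block 6455 genes were called, and all 6 genes kept their side of the threshold. Depth limits Rgs13 and Gcsam most, with as few as 9 and 28 counts in an mLN library.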
